A study of Mus musculus with 3 samples.

Results

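The genes described are 3 annotated genes of an rRNA-related locus on mouse chromosome 17 (Gm26917, Gm42418 and CT010467.1), called the locus below, and 6 protein-coding genes of rRNA synthesis and early processing (Polr1a, Polr1b, Ubtf, Ncl, Fbl and Npm1). They are 9 of 55536 annotated genes, with 51 annotated transcripts. They were selected by gene symbol, with the measured values of these libraries already known. All their levels are therefore given as descriptions, with no test.

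The RNA came from the chromatin fraction of macrophages grown from C57BL/6J bone marrow, which are primary cells, and was depleted of ribosomal RNA before sequencing. All cells had 100 ng/ml Lipid A, the Toll-like receptor 4 agonist of bacterial lipopolysaccharide, for 12 h, a washout of 12 h, and 100 ng/ml Lipid A again for 120 min. There is 1 group of 3 biological replicates and no untreated group, so no response to Lipid A can be read from these values, and the SDs measure only the spread between these samples. Age and sex were not collected, and the labels give the replicates 1 shared donor record and do not say that they came from separate animals, so that spread may be technical.

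RNA polymerase I transcribes the ribosomal DNA repeats in the nucleolus into a long precursor. From its start the precursor holds an external transcribed spacer, the 18S rRNA, an internal transcribed spacer, the 5.8S rRNA, a further internal spacer and the 28S rRNA, and the spacers are cut away and degraded while the ribosomal subunits form. UBTF binds along the active repeats, the Pol I complex makes the RNA, and fibrillarin, nucleolin and nucleophosmin act on it or on the particles that form around it.

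The libraries held 10293545, 17820066 and 17548564 expected counts in replicates 1, 2 and 3. Replicate 1 was the shallowest and had the shortest fragments, 151 bases implied by its effective lengths against 258 and 252, although the labels give all libraries 1 size range. It was made from 1 µg of RNA, against 250 ng and 500 ng for replicates 2 and 3. The 7 macrophage markers examined were all expressed, which here means 1 TPM or more in each library, and their TPM summed to 802 to 1228. Most of that sum was Adgre1, at 781, 783 and 560 TPM in replicates 1, 2 and 3. The lowest of the 7 by mean was Fcgr1, at 22.05, 19.71 and 7.66. Of 19 markers of other cell types, only Cd4 reached 1 TPM in every library of the alignment-based tables, at 1.18 to 3.42 TPM. Cd3e, the erythroid markers and Ly6g had 0 counts there. The dendritic cell marker Zbtb46 had 0.60, 1.06 and 1.49 TPM, and the fibroblast marker Col1a1 had 0, 32 and 50 counts. In the read-based tables described below, Zbtb46 also reached 1 TPM in every library, at 1.61, 2.23 and 2.80. Cd3e had 0.06 to 0.13 TPM in those tables. TPM (transcripts per 1e6, corrected for length) is a relative abundance.

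The locus is shown first, in mm10 coordinates of chromosome 17, because its layout bears on every count assigned to it. Gm26917 (ENSMUSG00000097971.3, lincRNA, 39843013 to 39846341, plus strand) ends 11 bases before CT010467.1 begins. CT010467.1 (ENSMUSG00000106106.2, type rRNA, 39846353 to 39848827) is annotated on the minus strand, and Gm42418 (ENSMUSG00000098178.1, lincRNA, 39846958 to 39848788) on the plus strand over part of the same bases. RefSeq for GRCm38.p6, the same assembly, names 39846354 to 39848202 as Rn18s-rs5, an 18S rRNA-related pseudogene of 1849 bases, and lists Gm42418 among its synonyms. CT010467.1-201, also 1849 bases long and offset from it by 1 base, covers that interval on the opposite strand.

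The sequences below, from the GENCODE M21 transcripts, mark the borders of these parts, written 5′ to 3′. The first 2 are plus strand and flank the border between Gm26917 and the 18S-related interval (chr17:39846282-39846341 and chr17:39846353-39846412).
Gm26917-202, last 60 bases: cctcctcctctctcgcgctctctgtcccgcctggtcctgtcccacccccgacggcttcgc
18S-related interval, first 60 bases: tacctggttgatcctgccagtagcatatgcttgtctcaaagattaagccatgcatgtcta
The second is the reverse complement of what is annotated as CT010467.1-201, whose own last 60 bases on the minus strand read as follows.
CT010467.1-201, last 60 bases: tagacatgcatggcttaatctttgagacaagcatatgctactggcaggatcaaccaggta
Gm42418 begins inside the interval, at base 39846958, and runs past its end (chr17:39848162-39848241, plus strand). Capitals mark the last 40 bases of the 18S-related interval and lower case the 40 bases after it.
Gm42418-201 across the border: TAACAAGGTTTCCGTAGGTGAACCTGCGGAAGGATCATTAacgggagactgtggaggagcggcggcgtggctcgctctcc

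Gm42418 thus covered the same genomic positions as 1244 bases of the 18S-related interval, and held 587 bases beyond it. Over the first 605 bases of that interval the minus-strand CT010467.1-201 is the only transcript annotated in GENCODE M21. That annotation, used for the counts, places no plus-strand gene there. Gm26917, upstream of the 18S-related interval where the external spacer of an rDNA unit would lie, had a GC content of 69.1%, against 55.4% in CT010467.1-201. The second CT010467.1 transcript, CT010467.1-202 (39848103 to 39848827, minus strand, annotated as a pseudogene), had 714 bases in 4 exons separated by gaps of 2, 5 and 4 bases. Of these, 675 (94.5%) also lay in Gm42418, on the opposite strand, and 39 did not, marked here in capitals at its start (chr17:39848748-39848827, minus strand).
CT010467.1-202, first 80 bases: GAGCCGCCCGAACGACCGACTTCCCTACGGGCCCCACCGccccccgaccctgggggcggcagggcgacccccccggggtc
The sources used here do not say whether counting used the strand. In the alignment-based counts both genes had fractional values that summed to whole numbers, 105440, 451636 and 482206 in replicates 1, 2 and 3. Reads were thus divided there between genes on opposite strands. Reads of these shared bases cannot be told apart between Gm42418 and CT010467.1.

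**Figure D1:**
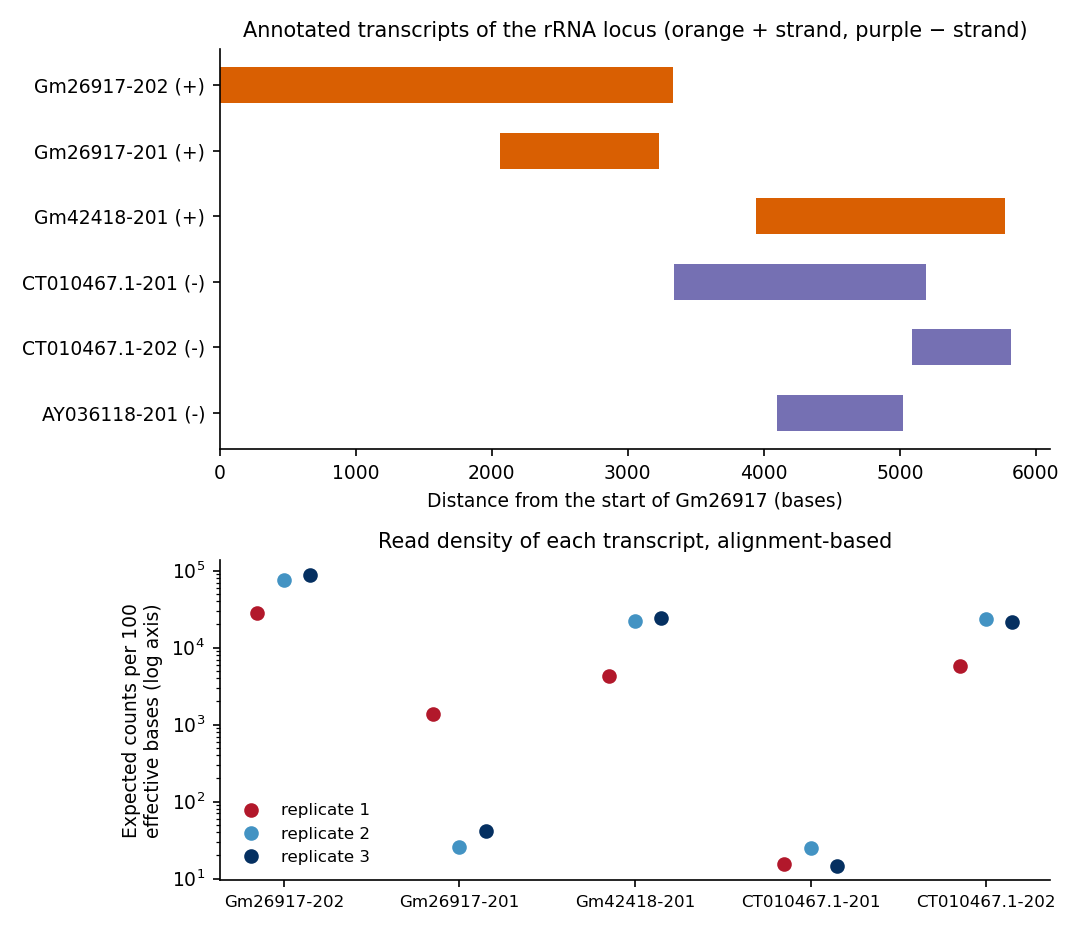
Top, annotated transcripts of the locus by distance in bases from the start of Gm26917, each drawn from its first to its last base. Bottom, expected counts per 100 effective bases of each transcript in each library on a log axis; Gm26917-202 lies highest in every library, and CT010467.1-201 lies between 14.7 and 24.7.

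Most reads assigned to the locus fell on the gene upstream of the 18S-related interval. These values do not tell whether such reads came from this stretch of chromosome 17 or from rDNA repeats of like sequence. Gm26917 had 914004, 2319607 and 2715373 counts in replicates 1, 2 and 3, the most of any annotated gene in each library. These were 8.88%, 13.0% and 15.5% of all counts, 12.5% ± 3.33 (SD, n = 3). Replicate 1 was the low library, and replicates 2 and 3 also differed from each other by more than the counting error. The 95% Wilson interval of each share was at most 0.018 percentage points to either side, and it covers counting error only, since the reads carry no molecular identifiers that the files record.

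Gm42418 held 0.71%, 1.93% and 2.17% of counts in replicates 1, 2 and 3, and CT010467.1 held 0.32%, 0.60% and 0.58%. The 3 genes together took 9.90%, 15.6% and 18.2%, 14.6% ± 4.25. Gm26917 supplied 89.7%, 83.7% and 84.9% of that sum, so its share of the locus was highest in the library where the locus as a whole was lowest. Its counts were 8.67 times those of Gm42418 and CT010467.1 together in replicate 1, against 5.14 and 5.63 times in replicates 2 and 3.

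Levels per effective base, that is per base of length less the fragment length, set transcripts of unlike length side by side. Gm26917-202 held 28437, 75499 and 88218 counts per 100 effective bases, and Gm42418 held 4331, 21888 and 24113. CT010467.1-201, the transcript that spans the whole 18S-related interval, held only 15.5, 24.7 and 14.7, from 263, 394 and 235 counts. The density of Gm26917-202 was thus 1834, 3052 and 5994 times that of CT010467.1-201, and 701, 2513 and 3725 times in the read-based tables described below. However, 67.3% of the bases of CT010467.1-201 also lie in Gm42418. Its density thus depends on how reads were divided between them, and is not the read density of the whole interval. Against Gm42418, the density of Gm26917-202 was only 6.57, 3.45 and 3.66 times as high, and 8.86, 4.58 and 4.78 times in the read-based tables. Ribosomal RNA had been depleted before sequencing, and the part of that depletion in these ratios was not tested. CT010467.1-202, of which 97 bases lie inside the 18S-related interval, held nearly all of the counts of its gene, with 32360, 106684 and 101042. AY036118 (39847113 to 39848035), a lincRNA annotated on the minus strand inside that interval and no member, had 0 counts in all 3 libraries in both quantifications.

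The deposited read-based quantification, made from the reads without that alignment, gave a sum within 1 SD of this one and another split. The 3 genes held 10.1%, 17.4% and 20.5% of its counts, 16.0% ± 5.35, and Gm26917 held 89.0%, 82.2% and 82.6% of that sum. CT010467.1, however, took 51.5%, 47.6% and 48.4% of the counts of the pair it forms with Gm42418, where the alignment-based tables gave it 30.9%, 23.7% and 21%. Its TPM was 9908, 34190 and 37986 in the read-based tables and 4690, 15008 and 12701 in the alignment-based ones. The gap between Gm42418 and CT010467.1 in level thus depended on the quantification. In the alignment-based tables they differed by 0.12 ± 0.28 on the log2(TPM + 0.1) scale, less than the SD, and in the read-based tables CT010467.1 was higher by 1.59 ± 0.05. The posterior SD of the count that the deposited table gives for Gm42418-201 was 183, 310 and 340 reads, and the value for CT010467.1-202 was the same to within 0.02 reads, far below the difference between the quantifications.

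**Figure D2:**
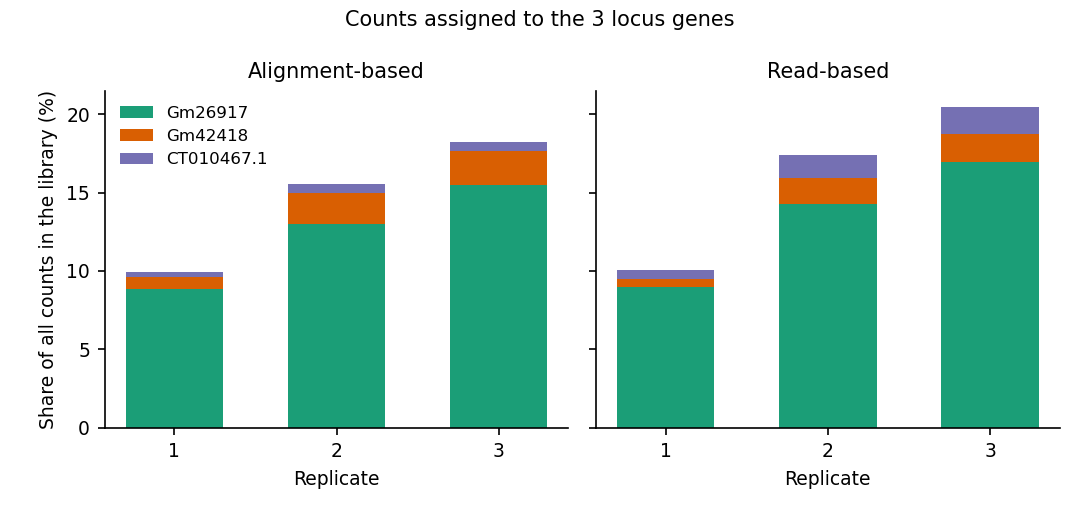
Share of all counts of each library (%) assigned to Gm26917, Gm42418 and CT010467.1, stacked, in the alignment-based and the read-based tables. Replicate 1 is lowest in both, at 9.90% and 10.1%, and the CT010467.1 segment is larger in the read-based panel.

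Gm26917 has a second annotated transcript, Gm26917-201, whose 869 bases all lie within Gm26917-202. It had 9914 counts in replicate 1 against 155 and 258 in replicates 2 and 3 in the alignment-based tables, and 28.3, 80.4 and 123 in the read-based ones. Replicate 1 was the high library in the first and the low library in the second, so no difference in isoform use between libraries is read from it.

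In the alignment-based tables few other rRNA rows held reads. Of 354 annotated genes of type rRNA, 346 had 0 counts in every library, and all but CT010467.1 together had 16, 2 and 1 counts. The highest of them, Gm25447 on chromosome 17, had 11, 1 and 1. The read-based tables gave them more, 845, 1526 and 1425 counts for all but CT010467.1 and 52, 112 and 123 for Gm25447, with replicate 1 the low library. The mitochondrial rRNAs mt-Rnr1 and mt-Rnr2, made from the mitochondrial genome by another polymerase, had 539, 204 and 304 counts and 386, 150 and 140 counts. They were highest in replicate 1, where the locus on chromosome 17 was lowest.

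Among the protein-coding members, the Pol I subunits were the lowest. Polr1a, which encodes the largest subunit of Pol I (ENSMUSG00000049553.11, chromosome 6, 71909053 to 71984935, plus strand), had TPM of 5.10, 11.4 and 7.96 from 197, 541 and 480 counts. Polr1b, which encodes the second largest subunit (ENSMUSG00000027395.15, chromosome 2, 129100995 to 129126594, plus strand), had 1.33, 6.33 and 5.25 TPM. It had 25 counts in replicate 1, the fewest of any member in any library, against 180 and 173. Polr1a was above Polr1b in each library, by 1.1 ± 0.67 on the log2(TPM + 0.1) scale, and their ranges over libraries overlapped.

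Ubtf, whose product opens and marks the active rDNA repeats, was the highest protein-coding member (ENSMUSG00000020923.17, chromosome 11, 102304560 to 102319742, minus strand). It had 40.6, 68.5 and 67.8 TPM, 59.0 ± 15.9, and its mean lay above that of 87.7% of the 9245 expressed protein-coding genes. Replicate 1 was again the low library and replicates 2 and 3 were close together.

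Npm1 encodes nucleophosmin, a chaperone of the granular part of the nucleolus (ENSMUSG00000057113.13, chromosome 11, 33152287 to 33163206, minus strand), and had 17.5, 37.5 and 40.9 TPM. Ncl encodes nucleolin, an RNA-binding protein of the nucleolus (ENSMUSG00000026234.12, chromosome 1, 86344719 to 86359400, minus strand), and had 15.8, 35.0 and 32.1 TPM. Fbl encodes fibrillarin, the methyltransferase of box C/D small nucleolar ribonucleoproteins (ENSMUSG00000046865.7, chromosome 7, 28169710 to 28179269, plus strand), and had 9.34, 18.5 and 13.6 TPM. In each of these genes replicate 1 lay below the other libraries.

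By mean TPM the order was Ubtf, Npm1, Ncl, Fbl, Polr1a and Polr1b. Each neighbour in this order was above the next in all 3 libraries, and each mean difference exceeded its SD, from 0.20 ± 0.13 between Npm1 and Ncl to 1.1 ± 0.67 between Polr1a and Polr1b, on the log2(TPM + 0.1) scale. The ranges of every neighbouring pair overlapped over the libraries. In the read-based tables Fbl and Polr1a differed by 0.20 ± 0.24, less than the SD, while Ncl stayed above Fbl by 1.05 ± 0.16. The median of the 6 genes was 3.62, 4.67 and 4.39 on that scale in replicates 1, 2 and 3, which was 0.65 ± 0.31 above the median expressed protein-coding gene.

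**Figure D3:**
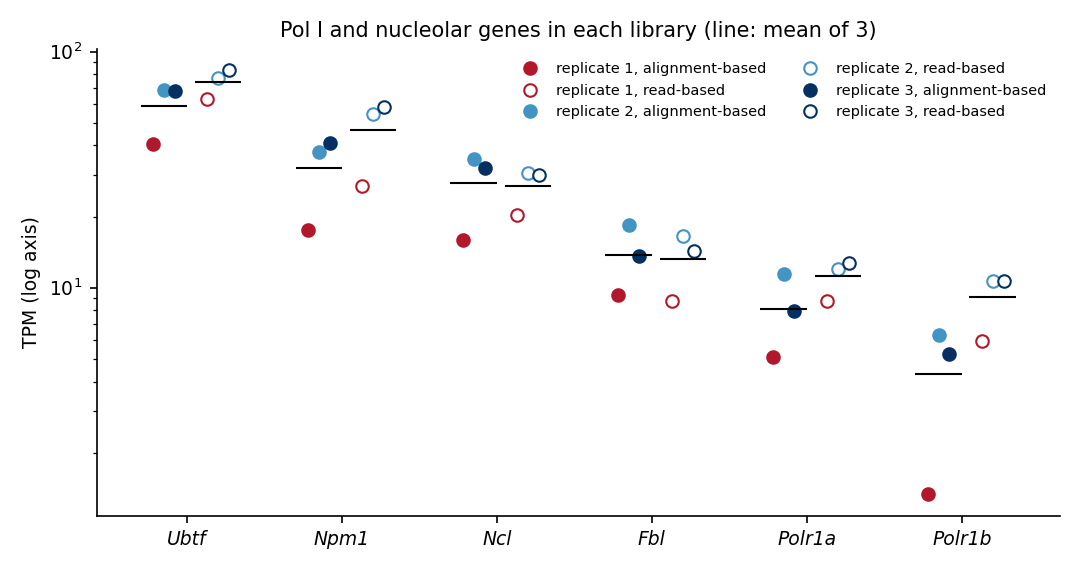
TPM on a log axis of the 6 protein-coding members in each library, filled circles alignment-based and open circles read-based, with a line at each mean of 3. Replicate 1 is the lowest library for every gene in both quantifications, and Polr1b in replicate 1 is lowest of all at 1.33.

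The quantifications gave Polr1b and Npm1 different levels. Polr1b had 5.94, 10.6 and 10.7 TPM in the read-based tables, and its read-based counts were 4.17, 2.23 and 2.45 times the alignment-based ones, where whole libraries differed by 1.83, 1.76 and 1.74 times. Npm1 had 26.8, 54.6 and 58.4 TPM there. Polr1a, at 8.80, 12.0 and 12.7 TPM, and Ubtf, at 63.2, 77.2 and 83.1, were also higher there in every library. Their means moved by less than the SD between replicates, and the highest library of Polr1a changed from replicate 2 to replicate 3. The read-based Ncl values of 20.3, 30.5 and 29.9 TPM and Fbl values of 8.76, 16.5 and 14.2 TPM were close to the alignment-based ones.

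Replicate 1 had the lowest TPM of the 3 libraries in all 6 protein-coding members and all 3 locus genes. Among the 9245 expressed protein-coding genes, 63.5% also had their lowest TPM there. Counts scaled to library size (CPM) give a smaller background: on that scale replicate 1 was lowest in 41.4% of expressed protein-coding genes, and still in all 9 members. Depth, fragment length and RNA input moved with replicate 1, and their part in its low values was not tested.

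Relative to TMM-normalised library sizes, log2(CPM + 0.5) of Polr1b in replicate 1 fell by 1.87 against the mean of the other libraries, Gm42418 fell by 1.57 and CT010467.1 fell by 0.93. On the same scale Gm26917 fell by 0.71, Polr1a fell by 0.61, Ncl fell by 0.55 and Fbl fell by 0.52. Ubtf and Npm1 fell by 0.37 each. The SD over the libraries ranged from 0.24 for Ubtf to 1.08 for Polr1b. Its median was 0.36 over the 9 members and 0.29 over the 17110 genes with at least 10 counts. Without replicate 1 the members' median was 0.11, below the 0.15 of all genes. By edgeR, the biological coefficient of variation over all these genes came to 29.8%, and to 16.4% without replicate 1.

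The 5 genes of at least 10 CPM whose profile over the 3 libraries lay nearest that of Gm26917, out of 7538 and by Euclidean distance of centred log2(CPM + 0.5), were Polrmt, Nsmf, Vps13a, Chml and Ppm1f, at distances of 0.012 to 0.017. Those nearest Polr1a were Gm45221, Rab5if, C2cd5, Chpf2 and Ei24, at 0.004 to 0.018. Among the members, Fbl lay nearest Polr1a at 0.086, and Ncl lay nearest Gm26917 at 0.20. With 3 libraries such a profile has few independent points, and the likeness describes these libraries only.

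The share of each gene on its coding isoforms differed widely between the protein-coding members. In chromatin RNA, reads of introns not yet spliced may be assigned to isoforms of the other types. Their part in these shares was not tested. For Ncl, isoforms with a retained intron took 84.0%, 80.1% and 82.4% of the gene's TPM, and its coding isoforms 17.8% ± 1.98. Ncl-202, an isoform of 3072 bases with a retained intron, had 8.23, 13.0 and 12.8 TPM, against 1.94, 4.79 and 4.08 TPM for the coding Ncl-201 of 8202 bases. Because TPM divides by length, the coding share of Ncl was larger by counts, 42.8% ± 5.15. By read-based counts the coding share of Ncl was 56.1% ± 4.47, above that of its isoforms with a retained intron, 43.9% ± 4.47.

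Polr1a had the lowest coding share, 13.0% ± 2.42 of TPM and 36.0% ± 4.63 of counts, all on its 1 coding isoform of 9216 bases. Isoforms annotated for nonsense-mediated decay, which degrades transcripts with an early stop, took 48.2%, 36.5% and 51.7% of its TPM, and Polr1a-207 of 3394 bases alone had 1.73, 2.54 and 3.47 TPM. The retained-intron isoform Polr1a-208 had 0, 120 and 34.8 counts in replicates 1, 2 and 3.

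Fbl divided between 2 coding and 4 retained-intron isoforms. The latter took 56.4%, 66.4% and 56.5% of its TPM, and the coding isoforms 40.2% ± 5.73. For Npm1 the coding share was 68.2%, 50.6% and 49.6% of TPM, with the rest on 2 processed transcripts, noncoding isoforms of the gene. For Polr1b it was 31.6%, 44.5% and 50.1%, and replicate 1, with 25 counts over 5 isoforms, was the low library. Ubtf stood at the other end, with 72.1% ± 8.48 of TPM and 95.8% ± 0.72 of counts on its 11 coding isoforms.

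Over the 7749 expressed protein-coding genes that have both a coding and another isoform, the median coding share was 46.7% ± 0.36 of TPM and 67.8% ± 1.11 of counts. In these alignment-based tables Polr1a, Ncl and Fbl lay below that median on both measures in the mean, and Ubtf and Npm1 above it on both. Polr1b lay below it by TPM, at 42.1% ± 9.50, and above it by counts, at 84.5% ± 7.38. The read-based tables gave a coding share of TPM of 5.49% ± 1.05 for Polr1a and 27.8% ± 1.64 for Ncl. For the pair Fbl and Ubtf they gave 40.9% ± 5.83 and 74.9% ± 8.0, and for Polr1b 29.6% ± 13.1. Their own median share of TPM over the 7749 genes was 40.2% ± 1.45, so in the mean Fbl did not lie below it there. By read-based counts Fbl did lie below, at 46.3% ± 7.30 against a median of 60.8% ± 0.35.

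**Figure D4:**
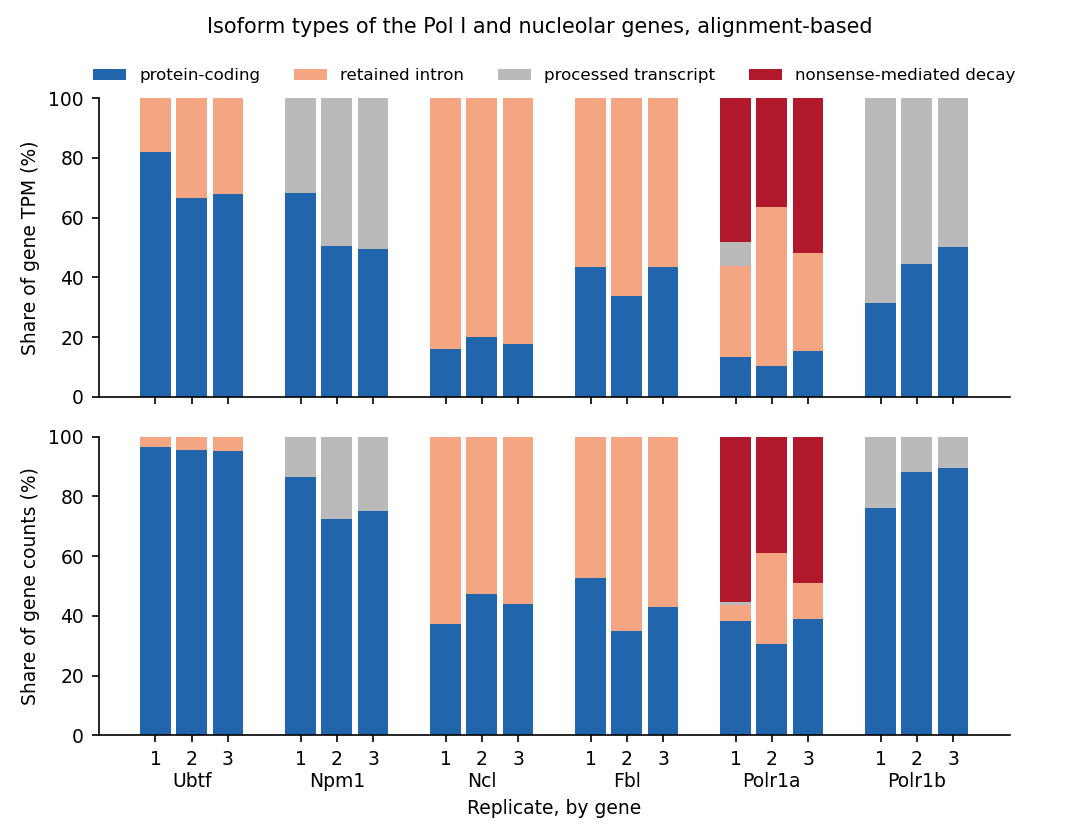
Share (%) of each gene's TPM (top) and of its counts (bottom) on isoforms of each annotated type, alignment-based, with 1 bar per library. Retained-intron isoforms hold over 80% of Ncl TPM in each library, and coding isoforms hold over 95% of Ubtf counts.

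Genes annotated inside or across the members can share their reads. Polr1a overlaps the antisense gene Gm26628 on the opposite strand, which had 11, 39 and 23 counts, and the pseudogene Gm19078, with 3, 7 and 3. Introns of Ncl host small nucleolar RNAs, which guide modification of rRNA. Of these, Snord82 and Snora75 had 0 alignment-based counts in every library, while the read-based tables gave Snord82 146, 34 and 50 counts and Snora75 15.8, 0 and 0. No such overlap was annotated for Polr1b, Ubtf, Fbl or Npm1.

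Nearly the whole pathway around the members was present. Of 112 genes in 7 lists of rRNA synthesis and processing, 107 (95.5%) had 1 TPM or more in all libraries, against 42.0% of the 22028 annotated protein-coding genes. The lists were written for housekeeping processes, so a high count is given as a description. All 13 Pol I subunits were expressed, including those shared with the other polymerases. They ranged from Polr2h, a shared subunit, at 1.69 ± 0.25 TPM to Polr1c, shared with Pol III, at 12.1 ± 2.75. In the read-based tables the lowest was Polr2l, also a shared subunit, at a mean of 2.19 TPM.

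As a group, the Pol I subunits were low. Their median level was 2.31 ± 0.14 on the log2(TPM + 0.1) scale, 1.27 ± 0.17 below the median expressed protein-coding gene. Minus the median of 7 Pol II subunits in the same library it was -0.94, -1.66 and -1.37, a mean difference of -1.32 ± 0.36. Minus that of 10 Pol III subunits it was -0.81, -1.26 and -1.13. The read-based tables gave differences of -1.36 ± 0.25 and -0.89 ± 0.37. The 5 subunits common to all these polymerases (Polr2e, Polr2f, Polr2h, Polr2k and Polr2l) were counted only in the Pol I list here, and the gap depended on that choice. With them in both lists, an alternative chosen after seeing the data, Pol I minus Pol II was -0.56, -0.23 and -0.29, a mean of -0.36 ± 0.18, and in the read-based tables -0.14 ± 0.19, with 0.08 in replicate 3. With them in neither list it was -1.57 ± 0.33, and -1.12 ± 0.28 in the read-based tables. Against Pol III, the difference with them in both lists was -0.20 ± 0.21, less than the SD, and -0.31 ± 0.48 in the read-based tables. With them in neither list it was -1.31 ± 0.42, and -0.65 ± 0.26 in the read-based tables. Polr1c and Polr1d, both shared with Pol III, were counted only in the Pol I list throughout. These are descriptions of short lists, with no test.

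The initiation and termination factors were 8 of 9 expressed. Taf1d, a component of the selectivity factor that places Pol I on its promoter, was highest at 130, 163 and 161 TPM, while the other selectivity factor genes Taf1a, Taf1b and Taf1c had means of 7.48, 6.49 and 6.36. Rrn3, which makes Pol I competent to initiate, had 3.59, 10.2 and 8.49 TPM, and Ttf1, the terminator protein, had 13.0, 20.3 and 14.8. Cavin1, known also as a transcript release factor, had 1, 1 and 4 counts.

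Regulators of rDNA chromatin had the highest list median, 4.38 ± 0.49, which was 0.80 ± 0.29 above the median expressed gene, and 10 of 10 were expressed. Sirt7, a deacetylase of the nucleolus, had the highest mean at 83.7 ± 21.3 TPM, and Rrp8 the lowest at 5.67 ± 2.19. Kdm2a, a histone demethylase, was close to Sirt7 at 81.5 ± 16.6 and above it in replicate 1, 65.3 against 63.6. In the read-based tables Kdm2a was the higher in every library, with 94.2, 128 and 117 TPM against 66.1, 79 and 66.1. Nucleolar organiser genes were 11 of 12 expressed, led by Npm1, and the lowest was Nop16 at 0.41, 1.20 and 1.74 TPM. In the read-based tables the lowest of them was Npm3, at a mean of 3.73 TPM.

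Of the small nucleolar ribonucleoprotein core proteins, 9 of 10 were expressed. Nop56, a partner of fibrillarin, was highest at 20.4, 47.2 and 47.9 TPM, and Nop10 was lowest at 0.94, 1.21 and 1.69. Nop58, another partner of fibrillarin, had 5.65, 15.8 and 16.4 TPM, below Fbl in replicates 1 and 2 and above it in replicate 3. In the read-based tables Nop58 was above Fbl in every library, at 12.4, 30.2 and 32.3 TPM. All 30 genes of the small subunit processome, which folds and cuts the precursor around the 18S rRNA, were expressed, from Imp3 at 1.97 ± 0.53 TPM to Wdr43 at 37.0 ± 8.54. For large subunit assembly and rRNA cleavage the count was 27 of 29, led by Xrn2, a nuclease that trims and degrades spacer RNA, at 46.1, 85.0 and 74.2 TPM. Nifk at 0.75 and Rrp1b at 0.80 TPM fell short in replicate 1 only.

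**Figure D5:**
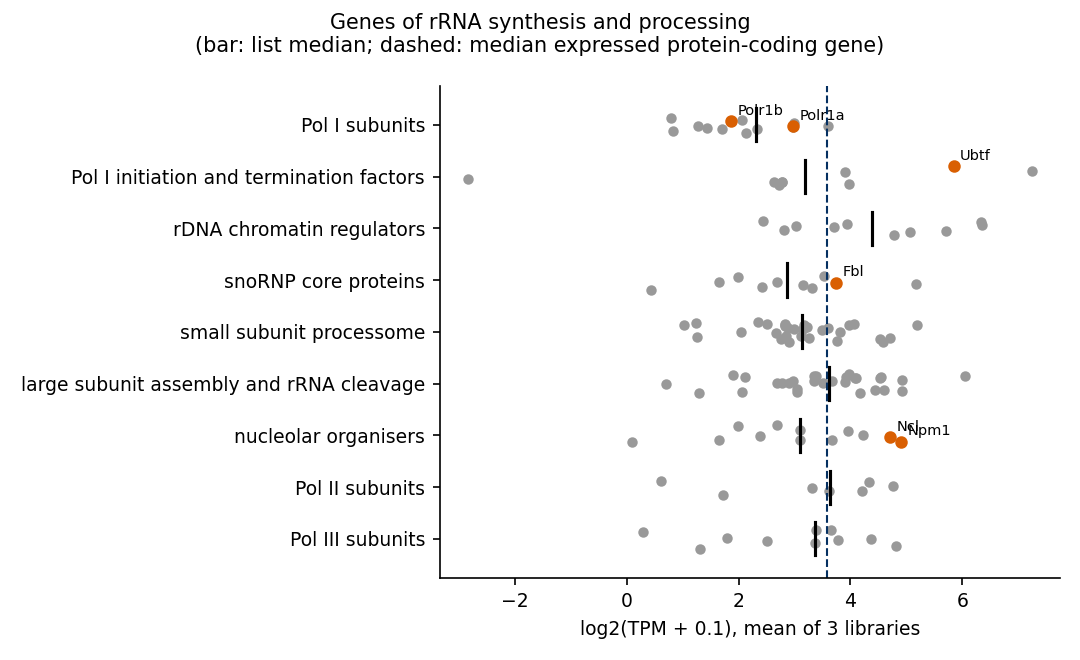
Each point is a gene at its mean log2(TPM + 0.1) over 3 libraries, by list, with the 6 members in orange, a bar at each list's median and a dashed line at the median expressed protein-coding gene (3.58). The Pol I subunits have the lowest median, 2.31, and the rDNA chromatin regulators the highest, 4.38.

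Of the 101 other expressed genes in these lists, 85 (84.2%) had their lowest TPM in replicate 1, beside the 63.5% of all expressed protein-coding genes given above. By CPM the shares were 68.3% and 41.4%. Neither difference in shares was tested.

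Among small RNAs of rRNA processing, Rmrp, the RNA of the RNase MRP that cuts the first internal spacer in yeast and human cells, had 94925, 82736 and 126135 counts. Its TPM was 61408, 98395 and 132203, and 42538, 30624 and 47277 in the read-based tables, so the lowest library by TPM depended on the quantification. Snord118, the U8 RNA needed for large subunit rRNA processing, had 7, 3 and 0 alignment-based counts, and Snord13 and Snord14e had 0 in every library. The read-based tables gave Snord118 633, 55.9 and 94.3 TPM, highest in replicate 1, the library of shortest fragments. They gave Snord13 604, 52.6 and 35.2 TPM and Snord14e 257, 0 and 4.02, also highest there. At these counts no comparison between libraries is made for Snord118, Snord13 or Snord14e.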

How the data were processed

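For each of the 3 libraries the authors deposited expected counts and TPM per gene and per transcript, in the columns RSEM writes, and estimated counts and TPM per transcript, in the columns kallisto writes, per the file headers. The deposited notes give mm10 and GENCODE M21, and say that the former derive from a transcriptome alignment and the latter from the reads. The sources used here give no program version, setting or strand. Effective length and the posterior SD of the count (used as a score of assignment error) are also the authors' deposited values.

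Gene rows were matched by identifier to GENCODE M21, which left 26345 of 81881 unmatched, with 0.39% to 1.87% of counts. Unmatched rows stay in the totals behind shares. Where a symbol had more than 1 identifier, the one with more counts was used. Read-based gene values are sums over transcripts. A gene was expressed at 1 TPM or more in each library, and log2 levels are log2(TPM + 0.1). TPM has a fixed total over all rows of a library: genes of at least 200 effective bases outside the locus held 30.7% to 38.1% of it, so levels of long genes are lowered by short RNAs and the locus.

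Expected counts were rounded for edgeR 4.0.16 (R 4.3.3) with TMM and an intercept-only design, over genes of at least 10 counts. DESeq2 1.42.0 size factors were an alternative. The code was tested on simulated data. Members and lists were chosen with earlier results of these data known. Named genes are the members, the highest, lowest and unexpressed genes of each list, the nearest profiles and the highest rRNA-type genes. Others of the initiation factors, Gm25447, Kdm2a, Nop58, the read-based extremes of the lists, Myc, single isoforms, overlapping genes and AY036118 were named after their values were seen, and some cell type markers are given only as sums or counts. No gene was tested between groups, since there is 1 group.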

Additional observations from a re-analysis of the deposited data

How the results depend on the processing

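Of 26 alternative values for the 7 main results (2 of them added after seeing the data), apart from leaving out a replicate, 20 moved by less than the spread between replicates (for counts of genes and the replicate spread, stayed within 1.5 times), 6 moved further and 0 reversed. Of 27 such values for 15 levels and coding shares of single members, 17 moved further, 10 did not and 0 reversed. TPM levels, shares, counts of genes and spreads cannot be negative, so for them 0 reversals was fixed in advance. By TPM in place of counts the locus share was 6.27% and the Gm26917 share of the locus 67.7%, since TPM divides by length. Rescaling TPM over genes of at least 200 effective bases without the locus raised the median log2 level of the 6 protein-coding members from 4.23 to 5.79, by the construction of the scale. The median coding isoform share was 41.1% by TPM and 61.3% by counts. At 5 TPM or more in each library, 68 of the 112 list genes passed in place of 107. Leaving out 1 replicate gave a median replicate spread of the members between 0.11 and 0.42 around 0.36, the lowest without replicate 1, and a locus share between 12.7% and 16.9%. Pol I minus Pol II subunits ranged from -1.15 to -1.56 under 8 alternatives. Counting the 5 shared subunits in both lists gave -0.36 and leaving them out of both -1.57, both added after seeing the data. Polr1b in replicate 1 rests on 25 counts. No paired analysis was possible because all samples belong to 1 group.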

Other observations

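Regulators of rRNA synthesis from an added list were 8 of 10 expressed, with a median level 0.55 ± 0.31 above that of the median expressed protein-coding gene on the log2(TPM + 0.1) scale. Akt1, a growth-signalling kinase, was highest at 44.2, 42.9 and 35.2 TPM. Myc, a transcription factor known to drive ribosome production, had 9.06, 8.44 and 5.42 TPM, and 12.6, 8.25 and 8.49 in the read-based tables. Mycn, its relative of neural tissue, and Cdkn2a, an inhibitor of the cell cycle, had 0 alignment-based counts in every library. Pol III subunits were 10 of 10 expressed, from Polr3g at 1.12 ± 0.15 TPM to Polr3c at 28.3 ± 2.87. Pol II subunits were 6 of 7 expressed, with Polr2b highest at 27.2 ± 5.40 (in the read-based tables Polr2g, at a mean of 43.7) and Polr2d at 0.85, 2.37 and 1.45 TPM.

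RefSeq promoters for GRCm38.p6 (250 bases before to 50 after each start) matched 97 of the 112 list genes, with 121 promoters. The letters CACGTG, the E-box that MYC and related factors bind, stood in 17 (14.0%) of these promoters and in 7.15% of all 32851 promoters. The letters TCGCGA stood in 12 (9.92%) of them and in 2.50% of all. Both motifs read the same on either strand and were counted at any position. Of the members, Polr1a, Polr1b, Ubtf and Ncl had 9 promoters in the table, and none held either motif. These counts describe letters in a window, and no test was made of them.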
